A study of Mus musculus with 16 samples.

Results

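Kit, Flt3 and Csf1r encode 3 receptor tyrosine kinases of early blood cells, and their loci were described here by the ATAC-Seq peaks around them. A region belonged to a gene when it lay within 150 kb of the gene's 5' end in mm10 (GENCODE M21). Overlapping peaks from the 49000 most significant peaks of each of 16 libraries were merged into 90549 regions. Of these, 101 lay in the 3 windows, 16 around Kit, 46 around Flt3 and 39 around Csf1r. Membership follows from gene and position alone, though the 3 genes were picked with earlier results of these data known.

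ATAC-Seq, in which a transposase cuts open chromatin and tags it for sequencing, was performed on hematopoietic progenitors from mouse fetal liver that had been immortalized with HoxB8 and grown in medium with β-estradiol. All cells were infected with retrovirus for 3 d, and 50000 sorted GFP+ cells entered each library. The study asked how GATA2, a zinc finger transcription factor of blood progenitors, and 9aa-Ins, a GATA2 with an insertion between its zinc fingers, act on the chromatin of cells that lack a Gata2 enhancer. Each of the 4 groups had 4 libraries. The hi-77+/+ empty cells were wild type at the Gata2 -77 enhancer and carried an empty vector. The other 12 libraries came from hi-77-/- cells, in which this enhancer is deleted, with an empty vector, with GATA2 or with 9aa-Ins. GATA2 and 9aa-Ins were therefore expressed from a vector on top of a Gata2 locus without its -77 enhancer, in immortalized cells. Between hi-77-/- and hi-77+/+ cells the genotype and the immortalized cell population change together, so their parts cannot be told apart. Differences said below to come with the deletion name this comparison and not a cause. The study describes the 4 libraries of a group as biological replicates. The labels do not say whether they came from separate cultures, so the p-values measure the spread between these libraries.

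Kit is the receptor for stem cell factor and is carried by stem cells, early progenitors and mast cells. Flt3 binds Flt3 ligand and is carried by multipotent and lymphoid progenitors and by progenitors of dendritic cells. Csf1r binds CSF1 and IL-34 and is the receptor on which monocytes and macrophages depend. All belong to the same receptor tyrosine kinase family, in which ligand binding pairs the receptors and switches on their kinase domains. GATA factors bind the sequence WGATAR, and a GATA-binding element far upstream of Kit is well known in mast cells and hematopoietic progenitors.

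The sequences below are those of the regions on which the Kit and Flt3 results turn. They are the plus strand of the mm10 (GRCm38) RefSeq genome, 200 bases each around the peak summits. Capitals mark every match to WGATAR, which is GATA with A or T before it and A or G after it, on either strand. The first 2 lie upstream of Kit, and the last 2 lie in introns of Flt3.
Kit -114.3 kb, chr5:75460582-75460781: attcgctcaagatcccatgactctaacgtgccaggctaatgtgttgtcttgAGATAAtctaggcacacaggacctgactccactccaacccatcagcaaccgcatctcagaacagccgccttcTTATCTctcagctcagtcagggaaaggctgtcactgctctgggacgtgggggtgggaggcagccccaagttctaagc
Kit -145.4 kb, chr5:75429385-75429584: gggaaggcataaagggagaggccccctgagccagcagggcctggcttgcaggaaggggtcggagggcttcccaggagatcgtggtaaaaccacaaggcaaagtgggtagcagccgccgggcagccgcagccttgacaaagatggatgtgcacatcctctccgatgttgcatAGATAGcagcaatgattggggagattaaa
Flt3 +34.0 kb, chr5:147366466-147366665: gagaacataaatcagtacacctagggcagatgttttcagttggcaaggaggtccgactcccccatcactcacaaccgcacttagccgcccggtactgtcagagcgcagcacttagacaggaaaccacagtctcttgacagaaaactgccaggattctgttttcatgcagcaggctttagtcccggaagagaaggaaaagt
Flt3 +11.5 kb, chr5:147389108-147389307: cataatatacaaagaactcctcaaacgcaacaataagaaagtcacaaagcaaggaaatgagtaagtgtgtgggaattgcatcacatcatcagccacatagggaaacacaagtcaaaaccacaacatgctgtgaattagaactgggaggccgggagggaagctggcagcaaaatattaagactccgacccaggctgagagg
The Kit -114.3 kb stretch holds 2 WGATAR matches and the Kit -145.4 kb stretch holds 1. The Flt3 stretches hold none.

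The deposited lists give the peaks of each library and no read totals, so the measure used was the rank of a peak within its own library. A region's rank score is the log2 of 49000 divided by the rank of its best peak, so that a score higher by 1 means a rank number smaller by a factor of 2. A score of 0 means that the library had no peak there among its first 49000, and not that the chromatin was measured as closed. A peak, or its lack, refers to these first 49000 unless the full lists are named. Differences between groups were tested with limma over 57174 regions that had a peak in at least 4 of the 16 libraries, and a region was called at an adjusted p below 0.05. Of the 101 member regions 65 were tested, 6 at Kit, 27 at Flt3 and 32 at Csf1r. Among the tested regions, 4 had peaks in 1 group alone and so had to differ. They include Kit -114.3 kb, with peaks in the GATA2 group, and Flt3 +100.7 kb and +85.1 kb, with peaks in the hi-77+/+ group. Others had a few peaks elsewhere but would not have been tested without the peaks of their high group. Among these are Flt3 +106.2 and -145.4 kb and Csf1r -89.1, -79.5 and -55.4 kb. The counts of called regions below include all such regions and so are not free of this selection.

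The lists held 76447 to 112267 peaks in hi-77+/+ empty, 64258 to 74703 in hi-77-/- empty, 50195 to 78185 in GATA2 and 70547 to 108020 in 9aa-Ins libraries. As a check of the labels, peaks covered 1196 to 1414 bases of the interval 76 to 78 kb upstream of Gata2 in the hi-77+/+ libraries. In the hi-77-/- libraries this interval had 0 bases covered in 8 of 12 and 246 to 609 bases in the other 4. Peaks covered 0% of the Gata2 coding exons in hi-77+/+ empty, 7.64 to 8.75% in hi-77-/- empty, 44.4 to 63.2% in GATA2 and 89.9 to 99.6% in 9aa-Ins libraries. Per the study, the GATA2 and 9aa-Ins vectors carry Gata2 cDNA, so vector DNA and open chromatin at the Gata2 exons cannot be told apart here. The cause of the higher coverage in 9aa-Ins than in GATA2 libraries was not tested. Promoter peaks were found at 5 to 6 of 7 hematopoietic marker genes in every library and at 0 of 5 hepatocyte and 0 of 5 T lymphoid markers, with 2 to 4 of 7 erythroid and 2 to 4 of 5 megakaryocyte markers. In such bulk samples a change in the share of cells of a type and a change in accessibility per cell cannot be told apart.

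To ask how much of each locus was accessible, the rank scores of all regions in a window were summed to a window score per library. GATA2 raised the window score of Kit and lowered those of Flt3 and Csf1r, whereas for 9aa-Ins against hi-77-/- empty no window score passed the test with the settings used, and that of Csf1r passed under 3 alternatives. The hi-77-/- empty libraries entered the deletion, GATA2 and 9aa-Ins comparisons alike, so these are not independent of each other. Over 20679 protein-coding genes, window scores were called higher for 24.4% and lower for 34.0% in the deletion comparison, which sets hi-77-/- empty beside hi-77+/+ empty. The shares were 14.9% and 14.7% for GATA2, 7.1% and 2.59% for 9aa-Ins, and 18.8% and 11.9% for 9aa-Ins against GATA2.

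The window score of Kit was 4.81, 3.65, 4.41 and 3.08 in hi-77+/+ empty, 6.59, 5.79, 5.95 and 6.55 in hi-77-/- empty, 9.87, 9.93, 8.38 and 10.26 in GATA2 and 5.2, 6.26, 6.22 and 5.56 in 9aa-Ins. The 4 GATA2 libraries lay above all others, and the hi-77+/+ libraries below all others. The score was 2.23 higher (SE 0.49, adjusted p = 0.000394) with the deletion and a further 3.39 higher (adjusted p = 9.56e-06) with GATA2. The 9aa-Ins difference was -0.41 (adjusted p = 0.711) against hi-77-/- empty and -3.8 against GATA2 (adjusted p = 2.03e-06). Within 100 kb, which leaves out the regions that differed most, the differences were 0.37 for the deletion (adjusted p = 0.413), 0.75 for GATA2 (adjusted p = 0.135) and -0.75 for 9aa-Ins against GATA2 (adjusted p = 0.129). With 50% as many peaks the deletion difference was 0.47 (adjusted p = 0.24), and with all deposited peaks no Kit window difference was called.

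For Flt3, the window score was 37.09, 40.51, 36.46 and 34.19 in hi-77+/+ empty, 40.5, 40.12, 38.91 and 36.73 in hi-77-/- empty, 32.37, 29.25, 28.69 and 30.01 in GATA2 and 37.26, 38.68, 41.73 and 38.43 in 9aa-Ins. Every GATA2 library lay below every other library, and the remaining 3 groups overlapped. With GATA2 the score fell by 8.99 (adjusted p = 1.65e-05), while the deletion difference of 2.0 (SE 1.37, adjusted p = 0.217) did not pass the test. For 9aa-Ins the difference from hi-77-/- empty was -0.04 (adjusted p = 1), and it was 8.95 above GATA2 (adjusted p = 1.83e-05). The deletion difference depended on the setting. It was called higher with 50% as many peaks (4.88, adjusted p = 0.000393) and within 100 kb (5.61, adjusted p = 0.000552), and lower with all deposited peaks (-16.25, adjusted p = 0.0496). It was also called lower, at -1.31 on a linear rank scale (adjusted p = 0.0133) and -4.75 by the number of regions with a peak (adjusted p = 0.0271). With the number of regions the GATA2 difference of -3.0 was not called (adjusted p = 0.265).

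Csf1r had window scores of 14.78, 16.78, 15.48 and 11.88 in hi-77+/+ empty, 23.34, 22.55, 24.51 and 24.97 in hi-77-/- empty, 19.97, 23.13, 18.43 and 20.37 in GATA2 and 27.4, 26.33, 26.01 and 26.88 in 9aa-Ins. The hi-77+/+ libraries were the lowest and the 9aa-Ins libraries the highest, with no overlap, and 1 GATA2 library reached into the range of hi-77-/- empty. The deletion raised the score by 9.11 (SE 1.05, adjusted p = 4.96e-08), a call that was lost with all deposited peaks (0.6, adjusted p = 0.954). With GATA2 the score fell by 3.37 (adjusted p = 0.0163), a call that was lost without hi-77-/- empty replicate 4 (-3.0, adjusted p = 0.0539) or without GATA2 replicate 3 (-2.69, adjusted p = 0.0753) and that reversed to a difference of 0.37 (adjusted p = 0.691) when 50% as many peaks per library were used. The 9aa-Ins libraries were 2.81 above hi-77-/- empty (adjusted p = 0.0929) and 6.18 above GATA2 (adjusted p = 6.36e-05). The first difference was called with 50% as many peaks (1.83, adjusted p = 0.0414), with all deposited peaks (18.76, adjusted p = 0.0246) and within 100 kb (3.13, adjusted p = 0.0345), and the second was not called with 50% as many peaks (1.45, adjusted p = 0.0519).

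**Figure D1:**
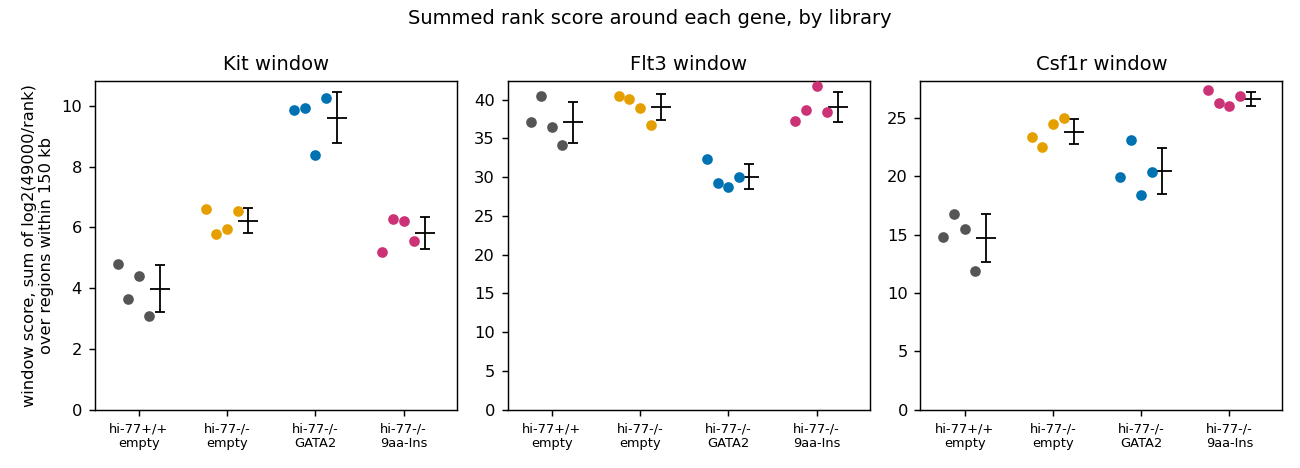
Window score (sum of rank scores within 150 kb of the gene's 5' end, vertical axis, no unit) of Kit, Flt3 and Csf1r in each library, with the mean and SD of each group of 4. GATA2 libraries are the highest at Kit (8.38 to 10.26) and the lowest at Flt3 (28.69 to 32.37), while 9aa-Ins libraries are the highest at Csf1r (26.01 to 27.4).

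Among the 65 tested member regions, the deletion raised 22 and lowered 12, GATA2 raised 6 and lowered 18, and 9aa-Ins raised 4 and lowered 0 against hi-77-/- empty. The shares of all tested regions called were 20.2% higher and 21.0% lower for the deletion, 9.15% and 12.4% for GATA2, and 6.38% and 2.22% for 9aa-Ins. 9aa-Ins was above GATA2 at 16 and below it at 7 member regions, beside 16.6% and 8.64% of all tested regions. GATA2 libraries were above hi-77+/+ empty at 12 and below at 13, beside 17.6% and 20.2%. The median difference of all tested regions was 0.0 in each comparison. By gene, the median difference of the tested regions for the deletion was 0.2 at Kit, -0.04 at Flt3 and 0.36 at Csf1r. For GATA2 it was 0.04, 0.0 and -0.07 in the same order, and for 9aa-Ins it was 0.0, -0.02 and -0.01.

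By presence alone, opened members were those with peaks in 4 of 4 libraries of the first group against 0 of 4 of the second, and closed members the opposite. Of the 101 members, the deletion opened 8 (1 at Kit, 7 at Csf1r) and closed 3 (at Flt3 +106.2, +100.7 and +85.1 kb), beside 3.59% and 2.11% of all regions. GATA2 opened 4 (2 at Kit, among them -114.3 kb, and Csf1r -89.1 and +27.0 kb) and closed 1 (Csf1r +5.2 kb), beside 1.73% and 2.23%. 9aa-Ins opened 1, Csf1r -23.3 kb, whose score difference of 0.64 was not called (adjusted p = 0.163), and closed 0, beside 1.35% and 0.171%. Set against GATA2, 9aa-Ins had 2 opened members (Csf1r -8.5 and +5.2 kb) and 4 closed (2 at Kit, among them -114.3 kb, Flt3 -92.9 kb, Csf1r -89.1 kb), beside 2.97% and 1.47%.

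**Figure D2:**
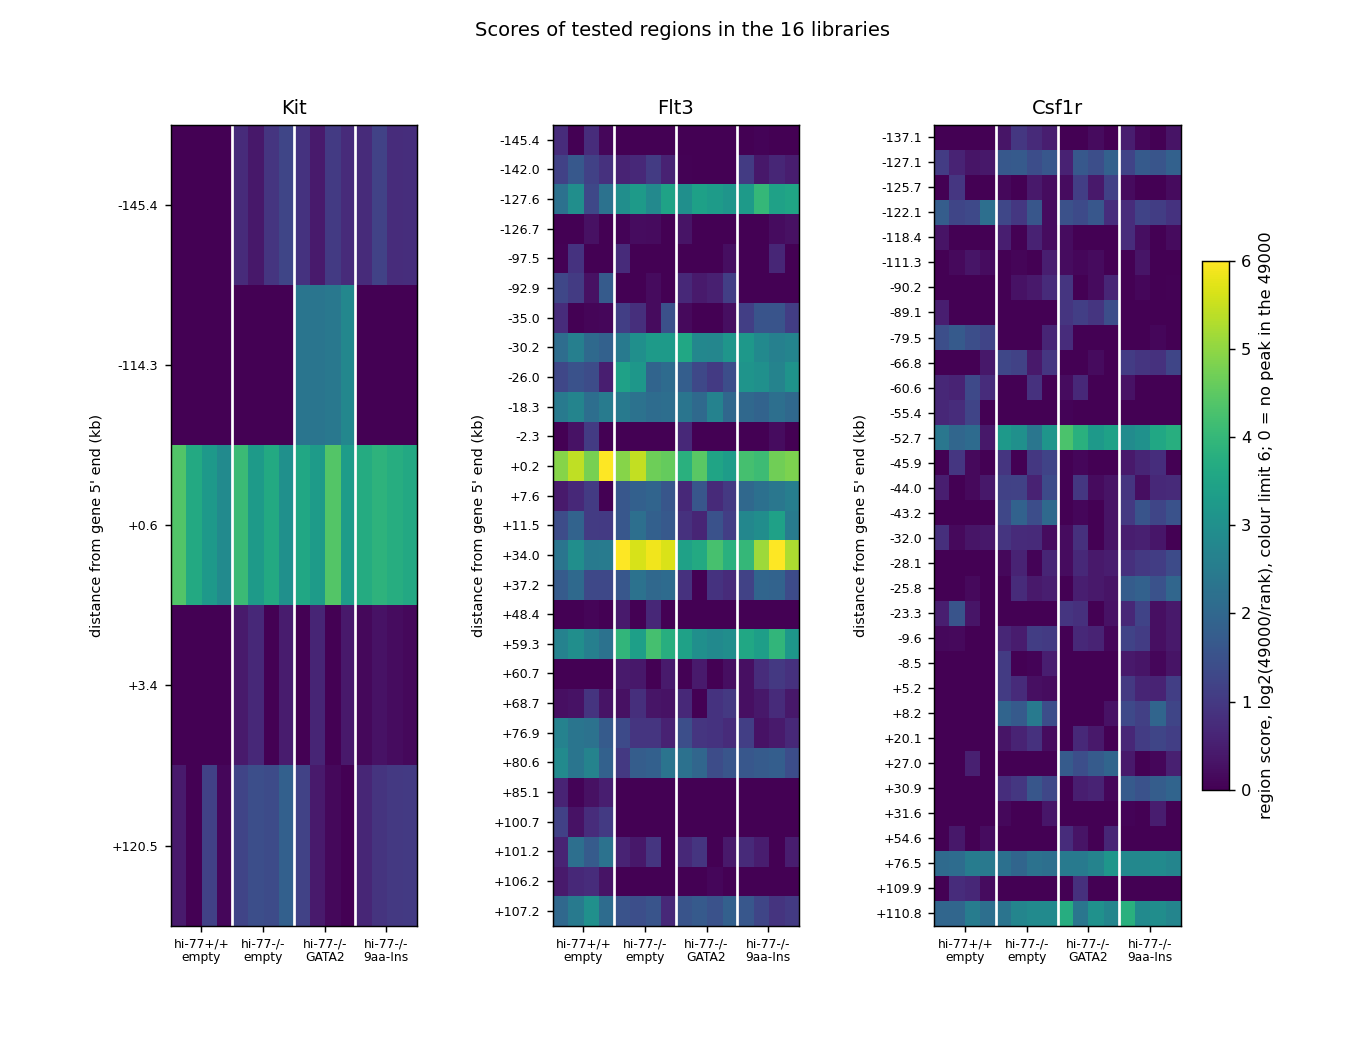
Rank scores (colour, 0 for no peak, colour scale ending at 6) of 64 of the 65 tested regions of Kit, Flt3 and Csf1r (rows, ordered by distance in kb from the gene's 5' end) in the 16 libraries (columns, by group). The row at Kit -114.3 kb is filled in the GATA2 columns alone, and several Csf1r rows are empty in the hi-77+/+ columns.

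Kit (ENSMUSG00000005672.12) lies at chr5:75574916-75656722 on the plus strand, and no other protein-coding gene starts in its window. The GATA2 libraries differed from the other groups at intergenic regions upstream of the gene, and the promoter itself showed no called difference. Of the 16 regions, 6 were tested, 1 had a peak in all 16 libraries and 8 had a peak in 1 library only. The deletion raised 3 and lowered 0 of the tested regions, GATA2 raised 2 and lowered 1, and 9aa-Ins raised 0 and lowered 0. The 2 regions that GATA2 raised had peaks in GATA2 libraries alone and so had to differ. Among the 10 untested regions, 7 had a peak in the GATA2 libraries, against 1 in each of the other groups. Several of these rest on 1 library, and the GATA2 lists reached less significant peaks than those of hi-77+/+ empty and 9aa-Ins. No share over all untested regions was computed for this count or the like counts of Flt3 and Csf1r below.

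The region at -114.3 kb (chr5:75460322-75460876) carries both WGATAR matches printed above. It had no peak in any hi-77+/+ empty, hi-77-/- empty or 9aa-Ins library and scored 2.34, 2.34, 2.4 and 2.78 in the GATA2 libraries. All 4 GATA2 libraries were thus apart from the other 12, and their mean exceeded that of each other group by 2.46. No test is given, since the region was tested through its GATA2 peaks alone. In the full deposited lists, weaker peaks stood here in 4 hi-77+/+ empty, 2 hi-77-/- empty and 3 9aa-Ins libraries, so the site was not without signal in those cells.

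A pair of untested upstream regions had a peak among the first 49000 in 3 of 4 GATA2 libraries and in no other library. They were at -141.9 kb, with GATA2 scores of 0.52, 1.52, 0 and 0.42, and at -108.9 kb, with 0.7, 0, 0.32 and 0.59. The full lists held a peak at -141.9 kb in 1 hi-77-/- empty, 3 GATA2 and 1 9aa-Ins libraries and at -108.9 kb in 1, 4 and 3.

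At -145.4 kb (chr5:75429355-75429631) a peak was found in all 12 hi-77-/- libraries and in 0 of the 4 hi-77+/+ libraries. The scores were 0.74, 0.39, 0.93 and 1.25 in hi-77-/- empty, 0.87, 0.44, 1.03 and 0.74 in GATA2 and 0.73, 1.18, 0.75 and 0.78 in 9aa-Ins. These 3 groups overlapped, and the deletion difference was 0.83 (SE 0.2, adjusted p = 0.00138). Weaker peaks were present in the full lists of 3 hi-77+/+ libraries.

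Downstream of the gene at +120.5 kb, scores were 0.44, 0, 1.17 and 0.11 in hi-77+/+ empty, 1.23, 1.43, 1.37 and 1.83 in hi-77-/- empty, 1.18, 0.44, 0.12 and 0 in GATA2 and 0.64, 0.9, 1.0 and 1.02 in 9aa-Ins. The hi-77-/- empty libraries were above the rest. The score rose by 1.04 with the deletion (SE 0.26, adjusted p = 0.00208) and fell by 1.03 with GATA2 (adjusted p = 0.00379), and the 9aa-Ins difference of -0.57 did not pass (adjusted p = 0.205). In intron 1, at +3.4 kb, weak peaks were present in 3 hi-77-/- empty, 2 GATA2 and 4 9aa-Ins libraries and in no hi-77+/+ library, although the full lists held one in 3 of those. Its deletion difference of 0.39 (SE 0.15, adjusted p = 0.0375) was lost when any of 7 libraries was left out, all 4 of hi-77+/+ empty and replicates 1, 2 and 4 of hi-77-/- empty (0.3 to 0.39, adjusted p = 0.0648 to 0.13).

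The Kit promoter region at +0.6 kb (chr5:75574568-75576379, over the 5' UTR of exon 1) has no WGATAR match in the 300 bases around its summit. It scored 4.37, 3.65, 3.24 and 2.87 in hi-77+/+ empty, 4.1, 3.28, 3.65 and 3.02 in hi-77-/- empty, 3.57, 3.3, 4.4 and 3.32 in GATA2 and 3.68, 3.88, 3.74 and 3.63 in 9aa-Ins. All groups overlapped. The differences were -0.02 for the deletion (adjusted p = 1), 0.13 for GATA2 (adjusted p = 0.865), 0.22 for 9aa-Ins (adjusted p = 0.866) and 0.08 for 9aa-Ins against GATA2 (adjusted p = 0.922), each with an SE of 0.32. The rise of the Kit window score with GATA2 thus stood at distal regions and not at the promoter.

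Mast cells carry Kit, and promoter peaks at several mast cell and basophil markers differed between the groups as well. Of 5 such genes, a peak was found at 1 in hi-77+/+ empty, 1 to 2 in hi-77-/- empty, 2 to 3 in GATA2 and 1 to 2 in 9aa-Ins libraries. Their summed promoter score was 0.8 to 2.1, 1.0 to 1.9, 2.1 to 3.6 and 1.8 to 2.4 in the same order. Cpa3, a mast cell protease, had a promoter peak in 4 of 4 GATA2 libraries and in no other. Hdc, which encodes the enzyme that makes histamine, rose with GATA2 from a mean score of 0.12 to 1.54 and was at 1.32 in hi-77+/+ empty and 0.18 in 9aa-Ins. Mcpt8, a basophil protease, went the other way, from 1.28 in hi-77-/- empty to 0.59 in GATA2 (adjusted p = 0.0321), with 1.98 in 9aa-Ins, while Fcer1a and Ms4a2, which encode subunits of the IgE receptor, were at 0 throughout. The part of such cells in the Kit result was not tested.

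**Figure D3:**
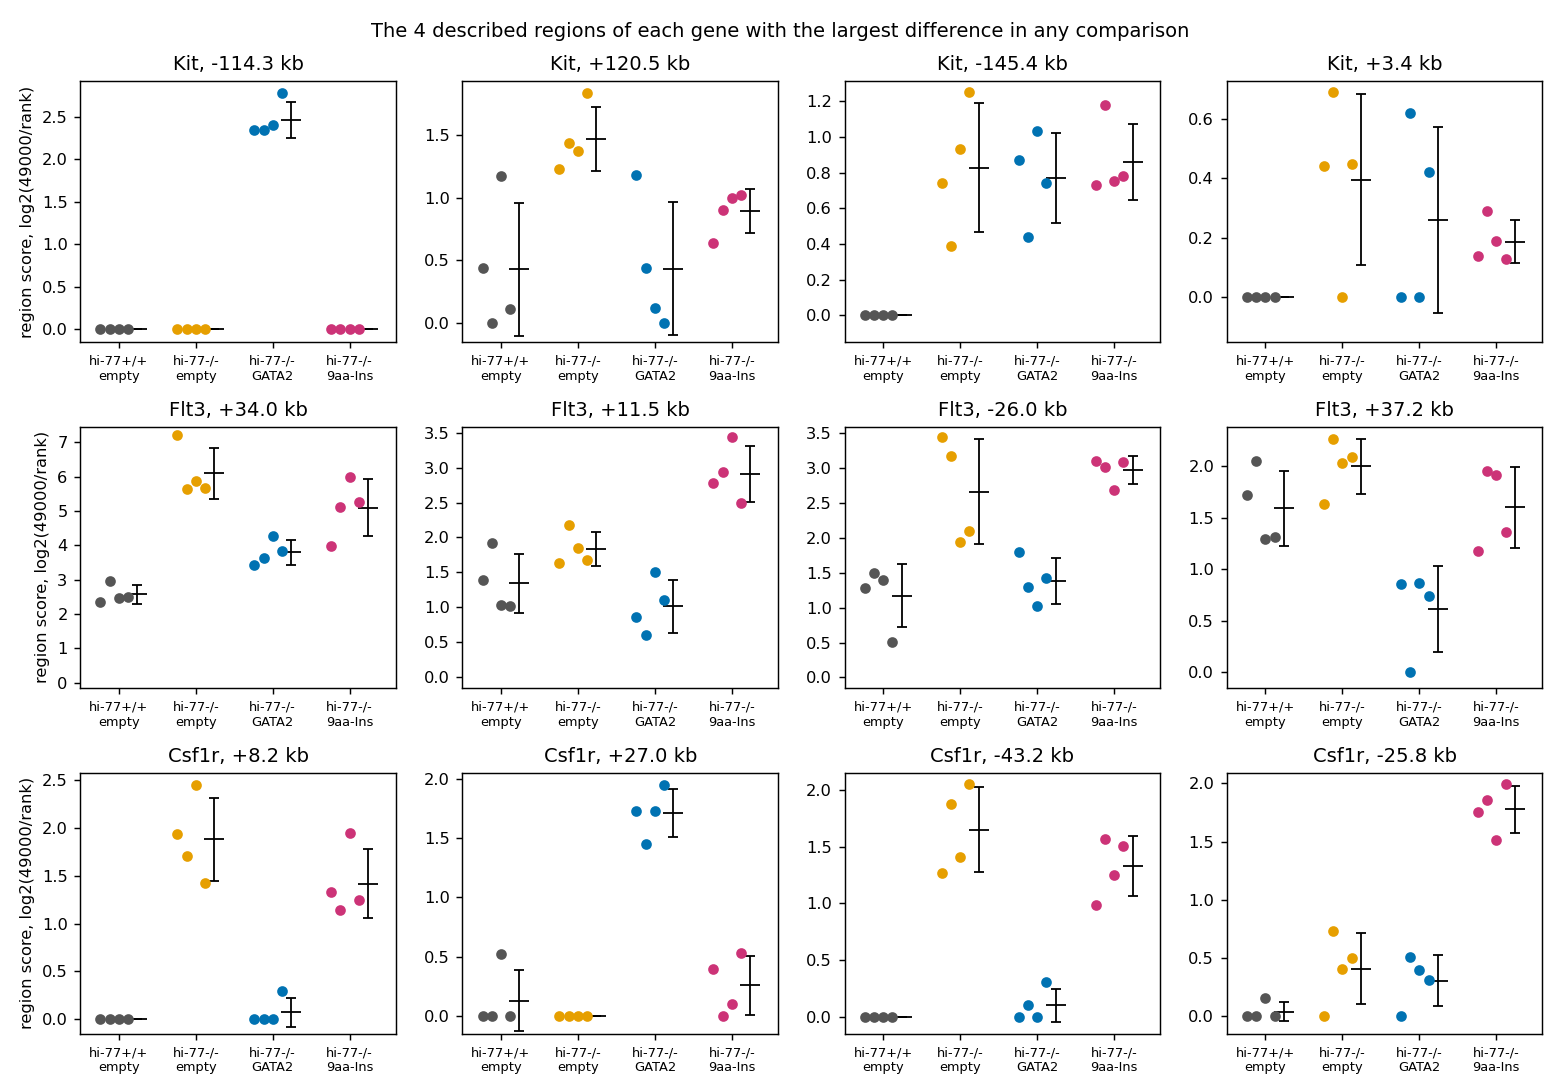
Rank score (vertical axis) of the 4 described regions per gene with the largest difference, by group. Points are libraries and bars are the mean and SD of 4 libraries. At Kit -114.3 kb only the GATA2 libraries are above 0 (2.34 to 2.78), and at Csf1r +27.0 kb the GATA2 libraries are at 1.45 to 1.95, above all others, while at Flt3 +34.0 kb the hi-77-/- empty libraries reach 5.64 to 7.2.

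Flt3 (ENSMUSG00000042817.15) lies at chr5:147330741-147400489 on the minus strand, so that positive distances run through the gene toward lower coordinates. Of the 46 regions around Flt3, 15 lay in its own gene body, and the window also holds the starts of Cdx2, Pan3, Pdx1 and Urad. Of these, 27 were tested and 11 had a peak in all 16 libraries. The deletion raised 7 and lowered 9, GATA2 raised 1 and lowered 9, and 9aa-Ins raised 1 and lowered 0. Against GATA2, 9aa-Ins was above at 8 and below at 1. The region that GATA2 raised, and at which 9aa-Ins was below GATA2, was at -92.9 kb in Pan3. Its mean score was 1.08 in hi-77+/+ empty, 0.04 in hi-77-/- empty, 0.69 in GATA2 and 0.0 in 9aa-Ins libraries. It differed by -1.03 with the deletion (adjusted p = 0.000532) and by 0.65 with GATA2 (adjusted p = 0.0361). Of the 19 untested regions, 12 had a peak in hi-77+/+ empty, 7 in hi-77-/- empty, 4 in GATA2 and 5 in 9aa-Ins libraries. Regions in introns 1 and 9 and at the promoter had lower scores in GATA2 libraries than in hi-77-/- empty.

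The largest difference was in intron 9, at +34.0 kb (chr5:147365900-147367013), whose summit sequence is printed above. Scores were 2.34, 2.97, 2.47 and 2.5 in hi-77+/+ empty, 7.2, 5.64, 5.88 and 5.66 in hi-77-/- empty, 3.44, 3.64, 4.26 and 3.82 in GATA2 and 3.99, 5.12, 6.0 and 5.25 in 9aa-Ins. The region ranked between 333 and 986 among 49000 peaks in hi-77-/- empty, 6273 and 9658 in hi-77+/+ empty, 2558 and 4522 in GATA2, and 763 and 3082 in 9aa-Ins. The hi-77+/+, GATA2 and hi-77-/- empty libraries did not overlap, and 9aa-Ins spanned from the GATA2 into the hi-77-/- empty range.

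The rise at +34.0 kb was 3.53 with the deletion (SE 0.39, adjusted p = 1.82e-07), and it fell by 2.31 with GATA2 (adjusted p = 7.58e-05), to a level 1.22 above hi-77+/+ empty (adjusted p = 0.0159). For 9aa-Ins the difference was -1.01 against hi-77-/- empty (adjusted p = 0.13) and 1.3 against GATA2 (adjusted p = 0.0147). The latter call was lost without GATA2 replicate 1 (1.19, adjusted p = 0.0508) or without 9aa-Ins replicate 3 (1.0, adjusted p = 0.0783). When only peaks narrower than 1 kb were used, GATA2 differed from hi-77-/- empty by -2.64 (adjusted p = 0.125) and 9aa-Ins from GATA2 by 0.19 (adjusted p = 0.962), since the peak of 9aa-Ins replicate 3 is 1000 bp wide and was left out.

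Also in intron 9, at +37.2 kb (chr5:147363031-147363489), scores were 1.72, 2.05, 1.29 and 1.31 in hi-77+/+ empty, 1.63, 2.26, 2.03 and 2.09 in hi-77-/- empty, 0.86, 0, 0.87 and 0.74 in GATA2 and 1.18, 1.95, 1.92 and 1.36 in 9aa-Ins. Only the GATA2 libraries stood apart. With GATA2 the score fell by 1.38 (SE 0.24, adjusted p = 0.000102), 9aa-Ins exceeded GATA2 by 0.99 (adjusted p = 0.00299), and the deletion difference of 0.41 did not pass (adjusted p = 0.187).

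In intron 1, the region at +11.5 kb (chr5:147388572-147389490) was the Flt3 region that 9aa-Ins raised above hi-77-/- empty. Its scores were 1.39, 1.92, 1.04 and 1.02 in hi-77+/+ empty, 1.63, 2.18, 1.85 and 1.68 in hi-77-/- empty, 0.86, 0.61, 1.5 and 1.11 in GATA2 and 2.78, 2.93, 3.44 and 2.49 in 9aa-Ins. All 9aa-Ins libraries were above all others, by 1.07 over hi-77-/- empty (SE 0.24, adjusted p = 0.00472) and by 1.89 over GATA2 (adjusted p = 2.94e-06). The first of these was not called on a linear rank scale (adjusted p = 0.161). With GATA2 the score fell by 0.81 (adjusted p = 0.016), which did not pass without hi-77-/- empty replicate 2 (-0.7, adjusted p = 0.0663) or without GATA2 replicate 2 (-0.68, adjusted p = 0.072).

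At +7.6 kb in the same intron (chr5:147392535-147393211), scores were 0.43, 0.7, 1.04 and 0 in hi-77+/+ empty, 1.63, 1.85, 1.94 and 1.61 in hi-77-/- empty, 0.69, 1.61, 0.71 and 1.0 in GATA2 and 2.03, 2.21, 2.39 and 2.56 in 9aa-Ins. The 9aa-Ins libraries were again the highest. The deletion raised the score by 1.22 (SE 0.23, adjusted p = 0.000164), and 9aa-Ins was 1.29 above GATA2 (adjusted p = 0.000138) and 0.54 above hi-77-/- empty (adjusted p = 0.184). The GATA2 difference of -0.75 (adjusted p = 0.0189) did not pass without hi-77-/- empty replicate 3, GATA2 replicate 1 or GATA2 replicate 3 (-0.69 to -0.65, adjusted p = 0.0566 to 0.0708).

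The Flt3 promoter region at +0.2 kb (chr5:147399803-147400787, over the 5' UTR of exon 1) scored 4.92, 5.43, 4.76 and 6.07 in hi-77+/+ empty, 4.91, 5.45, 4.68 and 4.59 in hi-77-/- empty, 3.82, 4.46, 3.51 and 3.32 in GATA2 and 4.24, 4.11, 4.69 and 4.82 in 9aa-Ins. The GATA2 libraries were below both empty vector groups and overlapped 9aa-Ins. The GATA2 libraries differed by -1.13 from hi-77-/- empty (SE 0.35, adjusted p = 0.0218) and by -1.52 from hi-77+/+ empty (adjusted p = 0.00137), and the 9aa-Ins difference was -0.44 (adjusted p = 0.61). The first call was lost without hi-77-/- empty replicate 2, GATA2 replicate 3 or GATA2 replicate 4 (-1.04 to -0.95, adjusted p = 0.0698 to 0.084) and with peaks narrower than 1 kb (-1.39, adjusted p = 0.0511).

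Upstream of Flt3, the intergenic region at -26.0 kb (chr5:147426327-147426747) scored 1.28, 1.5, 1.4 and 0.51 in hi-77+/+ empty, 3.44, 3.17, 1.94 and 2.09 in hi-77-/- empty, 1.8, 1.29, 1.02 and 1.42 in GATA2 and 3.1, 3.01, 2.68 and 3.09 in 9aa-Ins. The hi-77+/+ and GATA2 libraries overlapped each other and were below the other two groups. The deletion raised the score by 1.49 (SE 0.29, adjusted p = 0.000193), and it fell by 1.28 with GATA2 (adjusted p = 0.0016), while 9aa-Ins differed by 0.31 (adjusted p = 0.689) from hi-77-/- empty and by 1.59 from GATA2 (adjusted p = 0.000154).

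At -35.0 kb, in intron 1 of Pan3, which encodes a subunit of a poly(A) nuclease, scores were 0.75, 0, 0.08 and 0.1 in hi-77+/+ empty, 1.12, 0.81, 0.17 and 1.47 in hi-77-/- empty, 0.15, 0, 0 and 0.23 in GATA2 and 1.11, 1.55, 1.55 and 1.09 in 9aa-Ins. 9aa-Ins exceeded GATA2 by 1.23 (adjusted p = 0.000265) with no overlap. The GATA2 difference of -0.8 (SE 0.23, adjusted p = 0.0141) did not pass without hi-77-/- empty replicate 4 (-0.6, adjusted p = 0.0759) or with 50% as many peaks (-0.15, adjusted p = 0.414). The deletion difference of 0.66 (adjusted p = 0.0257) was lost without any of 5 libraries, hi-77+/+ empty replicates 2, 3 and 4 and hi-77-/- empty replicates 1 and 4 (0.47 to 0.62, adjusted p = 0.0634 to 0.122).

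Other regions of the Flt3 window were the highest in hi-77+/+ cells and stayed low with either GATA2 protein. Beyond the 3' end of the gene, the region at +76.9 kb (chr5:147323331-147323911) scored 2.66, 2.33, 2.26 and 1.72 in hi-77+/+ empty, 1.34, 0.93, 0.92 and 0.57 in hi-77-/- empty, 1.45, 0.92, 0.87 and 0.74 in GATA2 and 1.11, 0.29, 0.43 and 0.68 in 9aa-Ins. All hi-77+/+ libraries were above all hi-77-/- libraries. The score fell by 1.3 with the deletion (SE 0.23, adjusted p = 8.79e-05), and GATA2 libraries differed from hi-77+/+ empty by -1.25 (adjusted p = 0.000158). At +101.2 kb, where scores were 0.6, 2.19, 1.73 and 2.25 in hi-77+/+ empty and 0 to 0.92 in all hi-77-/- libraries, the deletion difference was -1.22 (SE 0.29, adjusted p = 0.00161). The 2 regions with peaks among the first 49000 in hi-77+/+ cells alone, at +100.7 and +85.1 kb, lie on the same side. The full lists held a peak at +100.7 kb in 3 hi-77-/- empty, 1 GATA2 and 3 9aa-Ins libraries and at +85.1 kb in 2 9aa-Ins libraries.

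Multipotent and lymphoid progenitors carry Flt3, and the promoter peaks of 6 B lymphoid markers had summed scores of 7.0 to 7.9 in hi-77+/+ empty, 8.6 to 10.8 in hi-77-/- empty, 6.6 to 7.6 in GATA2 and 8.2 to 10.1 in 9aa-Ins. Pax5, which commits cells to the B lineage, had no promoter peak in any library. These sums were lowest in the GATA2 libraries and in hi-77+/+ empty, and their part in the Flt3 result was not tested.

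Csf1r (ENSMUSG00000024621.16) lies at chr18:61100598-61132149 on the plus strand. Its protein-coding transcripts start 4.97 to 5.25 kb inside the annotated 5' end, and no region overlapped the 1 kb on each side of that end. The window holds 39 regions, 8 of them in the gene body, and the starts of Cdx1, Hmgxb3, Pde6a, Pdgfrb, Slc26a2 and Slc6a7. Of the 32 tested regions, the deletion raised 12 and lowered 3, GATA2 raised 3 and lowered 8, and 9aa-Ins raised 3 and lowered 0. Against GATA2, 9aa-Ins was above at 8 and below at 4. Of the 7 untested regions, 2 had a peak in hi-77+/+ empty, 3 in hi-77-/- empty, 0 in GATA2 and 4 in 9aa-Ins libraries. Several regions in and around Csf1r that had no peak among the first 49000 in hi-77+/+ empty had peaks in hi-77-/- empty and 9aa-Ins libraries and weak or no peaks with GATA2.

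In intron 2, which is known to hold the fms intronic regulatory element, the region at +8.2 kb (chr18:61108402-61109103) had no peak among the first 49000 of any hi-77+/+ library. It scored 1.94, 1.71, 2.45 and 1.42 in hi-77-/- empty, 0, 0, 0 and 0.3 in GATA2 and 1.33, 1.14, 1.95 and 1.25 in 9aa-Ins. Of the GATA2 libraries 3 had no peak, as in hi-77+/+ empty, and the 9aa-Ins libraries overlapped hi-77-/- empty. The deletion raised the score by 1.88 (SE 0.22, adjusted p = 2.77e-07), and it fell by 1.81 with GATA2 (adjusted p = 7.74e-07), whereas 9aa-Ins differed by -0.46 from hi-77-/- empty (adjusted p = 0.239) and by 1.34 from GATA2 (adjusted p = 4.16e-05). The last call was lost with 50% as many peaks (0.42, adjusted p = 0.092). In the full lists a peak was present in 1 hi-77+/+ empty, 4 hi-77-/- empty, 3 GATA2 and 4 9aa-Ins libraries. Overlap with the known element was not measured.

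The region at +5.2 kb (chr18:61105482-61106168) lies at the starts of the protein-coding transcripts, and was added after its values were seen. It had no peak among the first 49000 of any hi-77+/+ or GATA2 library (in the full lists 2 and 1 of them had one) and scored 1.05, 0.73, 0.24 and 0.21 in hi-77-/- empty and 0.99, 0.61, 0.59 and 1.12 in 9aa-Ins. The deletion raised it by 0.56 (SE 0.18, adjusted p = 0.014), it fell as much with GATA2 (adjusted p = 0.0243), and 9aa-Ins was 0.83 above GATA2 (adjusted p = 0.000923).

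At +30.9 kb, over the 3' UTR in exon 21 (chr18:61131035-61131906), no hi-77+/+ library had a peak among its first 49000, and all 4 had a weaker peak in the full lists. Scores were 0.79, 0.98, 1.61 and 1.28 in hi-77-/- empty, 0, 0.51, 0.6 and 0.1 in GATA2 and 1.7, 1.51, 1.77 and 1.93 in 9aa-Ins. The order was 9aa-Ins, then hi-77-/- empty, then GATA2, with an overlap of the first 2 groups. The deletion raised the score by 1.17 (SE 0.2, adjusted p = 5.55e-05), it fell by 0.86 with GATA2 (adjusted p = 0.00231), and 9aa-Ins was 0.56 above hi-77-/- empty (adjusted p = 0.0912) and 1.42 above GATA2 (adjusted p = 9.11e-06). With 50% as many peaks the deletion and GATA2 calls were lost (0.22, adjusted p = 0.167, and -0.22, adjusted p = 0.25).

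A further region of this kind, at -43.2 kb (chr18:61057103-61057634), lies in intron 1 of the neighbouring Pdgfrb, which encodes a PDGF receptor of the same family. It had no peak among the first 49000 in hi-77+/+ empty (3 libraries had one in the full lists) and scored 1.27, 1.88, 1.41 and 2.05 in hi-77-/- empty, 0, 0.1, 0 and 0.31 in GATA2 and 0.99, 1.57, 1.25 and 1.51 in 9aa-Ins. The deletion raised it by 1.65 (SE 0.2, adjusted p = 5.15e-07), it fell by 1.55 with GATA2 (adjusted p = 1.85e-06) and 9aa-Ins was 1.23 above GATA2 (adjusted p = 4.36e-05), which was not called with 50% as many peaks (0.33, adjusted p = 0.115).

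The opposite pattern was present in intron 15 of Csf1r, at +27.0 kb (chr18:61127389-61127904). Scores were 0, 0, 0.52 and 0 in hi-77+/+ empty, 0 in all hi-77-/- empty, 1.73, 1.45, 1.73 and 1.95 in GATA2 and 0.4, 0, 0.1 and 0.53 in 9aa-Ins. All GATA2 libraries were above all others, with a difference of 1.72 from hi-77-/- empty (SE 0.18, adjusted p = 1.22e-07). 9aa-Ins differed by 0.26 from hi-77-/- empty (adjusted p = 0.521) and by -1.46 from GATA2 (adjusted p = 1.71e-06). The full lists held a peak at +27.0 kb in 3 hi-77+/+ empty, 0 hi-77-/- empty, 4 GATA2 and 4 9aa-Ins libraries. At -89.1 kb, in intron 1 of the transporter gene Slc6a7 (chr18:61011315-61011603), GATA2 libraries scored 0.93, 1.11, 0.93 and 1.45, hi-77+/+ empty replicate 1 scored 0.5 and all others 0. The GATA2 mean exceeded that of hi-77-/- empty by 1.1, and 9aa-Ins was lower than GATA2 by the same amount. No test is given for this region, since without its GATA2 peaks it would not have been tested. The third region that GATA2 raised was at +54.6 kb in Hmgxb3, and these 3 and the region at -125.7 kb were those at which 9aa-Ins was below GATA2.

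9aa-Ins raised 3 regions of the Csf1r window above hi-77-/- empty, and the largest difference was at -25.8 kb in intron 14 of Pdgfrb. Scores there were 0, 0, 0.16 and 0 in hi-77+/+ empty, 0, 0.73, 0.41 and 0.5 in hi-77-/- empty, 0, 0.51, 0.4 and 0.31 in GATA2 and 1.75, 1.86, 1.51 and 1.99 in 9aa-Ins. The 9aa-Ins libraries were above all others, by 1.37 over hi-77-/- empty (SE 0.19, adjusted p = 3.4e-05) and by 1.48 over GATA2 (adjusted p = 2.56e-06). The other 2 were at -28.1 kb in intron 11 of Pdgfrb, with 9aa-Ins scores of 0.84, 1.0, 1.1 and 1.38 and a difference of 0.73 (adjusted p = 0.00858), and at +76.5 kb, with a difference of 0.65 (adjusted p = 0.0479).

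The deletion lowered 3 regions of the Csf1r window, at -79.5, -60.6 and -55.4 kb, and GATA2 libraries were below hi-77+/+ empty at all 3. At -79.5 kb, in intron 1 of Cdx1, which encodes a homeobox factor, scores were 1.44, 1.7, 1.44 and 1.22 in hi-77+/+ empty, 0, 0, 0 and 0.62 in hi-77-/- empty, 0.76, 0, 0 and 0 in GATA2 and 0, 0, 0.1 and 0 in 9aa-Ins. The hi-77+/+ libraries were above all others. The deletion difference was -1.3, and GATA2 libraries differed from hi-77+/+ empty by -1.26. No test is given, since this region, like that at -55.4 kb, would not have been tested without its hi-77+/+ peaks. In the full lists a peak stood at -79.5 kb in 4 hi-77+/+ empty, 3 hi-77-/- empty, 1 GATA2 and 3 9aa-Ins libraries. At -52.7 kb, in intron 1 of Pdgfrb, scores were instead 2.38, 1.97, 2.09 and 0.39 in hi-77+/+ empty, 3.25, 3.01, 2.35 and 3.14 in hi-77-/- empty, 4.3, 3.8, 3.23 and 3.44 in GATA2 and 2.89, 3.04, 3.57 and 3.76 in 9aa-Ins. The deletion raised this region by 1.23 (SE 0.34, adjusted p = 0.0057), a call that was lost with peaks narrower than 1 kb (1.4, adjusted p = 0.235), and GATA2 was 1.98 above hi-77+/+ empty (adjusted p = 6.33e-05).

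Csf1r marks the monocyte lineage, and promoter peaks of myeloid markers differed between the groups too. Of 7 markers of monocytes, macrophages and dendritic cells, a peak was found at 1 in hi-77+/+ empty, 3 to 4 in hi-77-/- empty, 2 to 3 in GATA2 and 3 to 4 in 9aa-Ins libraries, with summed scores of 0.6 to 1.5, 1.6 to 2.5, 2.4 to 2.9 and 2.2 to 3.0. Ly86 and Clec9a were at 0 throughout. The summed score of 5 neutrophil markers was 0.7 to 1.5, 5.8 to 6.6, 3.5 to 5.9 and 9.3 to 10.7 in the same order, lowest in hi-77+/+ empty and highest in 9aa-Ins as the Csf1r window score also was. The part of these markers' cells in the Csf1r result was not tested.

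**Figure D4:**
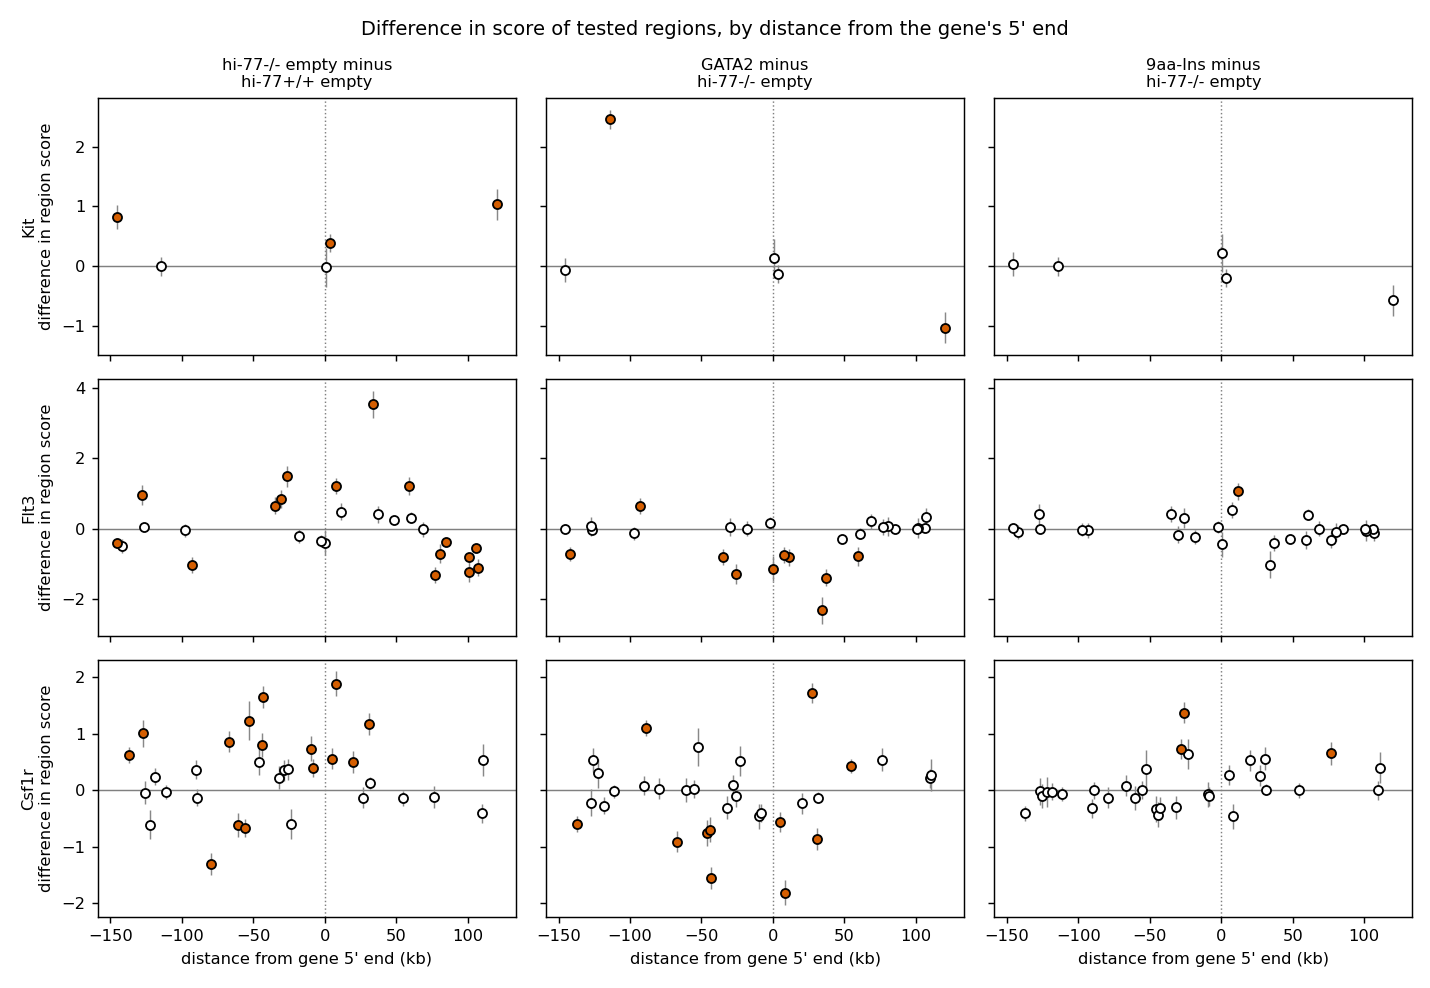
Difference in rank score (vertical axis) of 64 of the 65 tested regions in 3 comparisons (deletion, GATA2 and 9aa-Ins), against their distance in kb from the 5' end of Kit, Flt3 or Csf1r (horizontal axis). Filled points are called at an adjusted p below 0.05 and bars are standard errors. The fill has no weight as a test at Kit -114.3 kb and Flt3 +100.7 and +85.1 kb, which had to differ. The same holds for regions tested only through their high group. GATA2 differences of 2.46 at Kit -114.3 kb, -2.31 at Flt3 +34.0 kb and -1.81 at Csf1r +8.2 kb are the farthest from 0 for the respective genes.

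The sequences of the tested regions were searched on both strands for 4 motifs in 300 bases around the summit. WGATAR was found in 5 of 6 Kit, 3 of 27 Flt3 and 11 of 32 Csf1r regions, beside 33.6% of the 57174 tested regions of the genome. An E-box (CANNTG), bound by basic helix-loop-helix factors, was found in 5, 20 and 29 of them (77.8% of all). An ETS core, spelled CCGGAAGT or as the forms AGGAAGT and GAGGAA that can overlap each other, was found in 3, 13 and 12 (47.1% of all). The composite of an E-box and WGATAR spaced by 6 to 14 bases, a known arrangement at GATA sites that overlaps both single motifs by definition, was found in 1 tested member region, Csf1r +27.0 kb, and in 2.45% of all. It was also present in 4 untested member regions, among them Kit -141.9 kb.

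Promoter regions of the pathway around these receptors were tested in the same fit, within 1 kb of each 5' end. Some genes had more than 1 such region, as Grb2 with 2 and Flt3l with 3. The scores given for a gene, here and among the markers above, are those of 1 region. The shares called over all tested regions, 20.2% higher and 21.0% lower for the deletion and 9.15% and 12.4% for GATA2, are the background of the counts that follow. Among ligand genes, 2 of 4 had a tested promoter region and Kitl and Il34 had none. Flt3l, which encodes the ligand of Flt3, had mean scores of 1.32 in hi-77+/+ empty, 1.67 in hi-77-/- empty, 2.86 in GATA2 and 1.26 in 9aa-Ins. It rose by 1.19 with GATA2 (SE 0.21, adjusted p = 0.000113), and 9aa-Ins differed from GATA2 by -1.6 (adjusted p = 3.65e-06). These directions are the reverse of those of the Flt3 window score. Csf1, a ligand of Csf1r, fell by 0.64 with GATA2 (adjusted p = 0.0371). Of 5 related receptors, 3 were tested, and the deletion lowered 2, with differences of -0.66 at Pdgfrb and -0.75 at Flt1. The Pdgfrb promoter region is the one at Csf1r -55.4 kb, already counted in the Csf1r window. It had a peak in 4 libraries, 3 of them hi-77+/+ empty.

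Of 22 genes for adapters and effectors 20 were tested, and the deletion raised 4 and lowered 2, close to or below those shares. Among them Stat3 rose by 1.98 (adjusted p = 0.00148) and Plcg2, a phospholipase, fell by 1.4 (adjusted p = 2.54e-05). Grb2, the adapter that links such receptors to Ras, rose by 1.28 (adjusted p = 0.00277), Sos1 by 0.63 and Pik3cd by 0.71, and Akt1 fell by 0.7. GATA2 raised 0 and lowered 1, the exchange factor Vav1, which fell by 0.8 (adjusted p = 0.029), and 9aa-Ins raised and lowered 0. Of 15 inhibitors 13 were tested, and the deletion raised 3 and lowered 2, near the shares over all regions. The ubiquitin ligase gene Cbl rose by 2.12 (adjusted p = 0.0012), Sh2b3, an adapter that restrains cytokine signalling, rose by 1.73 (adjusted p = 0.00186), and Cblb fell by 1.71 (adjusted p = 0.000363). Sla2 rose by 1.23 and Socs2 fell by 0.62. No inhibitor promoter was called for GATA2 or 9aa-Ins against hi-77-/- empty. Dusp6, a phosphatase of ERK, was 2.2 higher with 9aa-Ins than with GATA2 (adjusted p = 0.0077). Its 9aa-Ins difference from hi-77-/- empty was 1.7 (SE 0.61, adjusted p = 0.0892).

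Of 17 transcription factors known at these loci 14 had a tested promoter region, and Gata1, Lmo2 and Hoxa9 had none. The deletion raised 7 and lowered 2, GATA2 raised 0 and lowered 1, and 9aa-Ins raised and lowered 0. Spi1, which encodes PU.1, a known activator of Csf1r, rose by 1.36 with the deletion (adjusted p = 0.00351) and was 1.41 higher with 9aa-Ins than with GATA2 (adjusted p = 0.0041). Lyl1, which encodes a basic helix-loop-helix factor, rose by 2.07 with the deletion and fell by 1.49 with GATA2 (adjusted p = 0.0458), and was 1.48 higher with 9aa-Ins than with GATA2 (adjusted p = 0.0416). Mitf, a factor of mast cells and melanocytes, fell by 3.53 with the deletion (adjusted p = 1.27e-08). The other factors raised by the deletion were Tal1, Runx1, Cebpa, Myb and Meis1, by 0.67 to 1.37, and Irf8 fell by 0.48.

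The genes whose window scores were most like those of the receptors were found by Pearson's r over the 16 libraries, which share groups and are therefore not independent points. For Kit they were Ypel3 (0.966), Pdgfra (0.954), which lies near Kit on chromosome 5 with a window that does not overlap, and Gm26897 (0.951). The mean window scores of Pdgfra were 5.46 in hi-77+/+ empty, 7.62 in hi-77-/- empty, 10.78 in GATA2 and 7.18 in 9aa-Ins. For Flt3 they were Tubal3 (0.916), Chn2 (0.911) and Ovol2 (0.908), and for Csf1r Scamp5 (0.971), Matn3 (0.965) and Wfdc21 (0.96). Among the receptors, r was -0.661 between Kit and Flt3, 0.276 between Kit and Csf1r and 0.309 between Flt3 and Csf1r.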

How the data were processed

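Per the labels and the study's methods, the authors trimmed ATAC-Seq reads (Trim Galore 0.4.1), aligned them to mm10 (Bowtie2 2.2.5), removed duplicates (Picard 2.26.0), kept unique reads, shifted ends for the transposase and called peaks per library with MACS2 (version not given in the sources used here). The authors tested read counts with DESeq2, and the deposited lists used here hold no counts or read totals, so depth is unknown and no counting interval is given. The deposited columns are a peak score, a fold enrichment (ratio to background), the −log10 p and q, and a summit offset. Only rank was compared between libraries.

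From each list the 49000 most significant peaks (by −log10 p) on chromosomes 1 to 19 and X were kept and merged where they overlapped by 1 bp. Rank scores were fitted with limma 3.58.1 in R 4.3.3 (trend, robust, all 16 libraries in 1 fit, no covariate) over regions with a peak in at least 4 libraries, and window scores over protein-coding genes of GENCODE M21, whose windows overlap between neighbours. P-values were adjusted by Benjamini-Hochberg over all regions or genes. The scripts were tested on simulated data.

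Described in detail were the promoter region (1 kb each side of the 5' end) and, per gene, at most 8 called regions with the largest differences. For 1 region near Kit the values and sequence are not reported here, and it enters the counts only. The members, gene lists, markers (of which Spi1, Myb and Vav1 stand in 2 lists) and tests were chosen with earlier results of these data known. Alternatives were 50% of the 49000 or all peaks per library, peaks narrower than 1 kb, ranking by fold enrichment, merged 250 bp summit windows, a linear rank score, no filter, a 100 kb window, the number of regions, each library left out, and the replicate number as a block.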

Additional observations from a re-analysis of the deposited data

Results flagged for a closer look

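In each group of 4 libraries, the highest and lowest score of the described regions and windows were compared with the others by Dixon's ratio. Chance passes it in about 1 of 20 groups of normally distributed values. A group in which 3 scores are 0 and 1 is not passes by construction, so that rate does not apply here. Of 89 groups checked, 12 passed, and in 7 of these the other 3 libraries had no peak.

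At Kit, GATA2 replicate 4 scored 2.78 at -114.3 kb (the others 2.34 to 2.4) and 9aa-Ins replicate 2 scored 1.18 at -145.4 kb (the others 0.73 to 0.78). At Flt3, hi-77-/- empty replicate 1 scored 7.2 at +34.0 kb (the others 5.64 to 5.88), GATA2 replicate 2 had a score of 0 at +37.2 kb (the others 0.74 to 0.87), and hi-77+/+ empty replicate 1 scored 0.75 at -35.0 kb (the others 0 to 0.1).

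At Csf1r, a single library had a peak in 7 groups. These were hi-77+/+ empty replicate 1 at -89.1 kb (0.5), hi-77-/- empty replicate 4 (0.62), GATA2 replicate 1 (0.76) and 9aa-Ins replicate 3 (0.1) at -79.5 kb, hi-77+/+ empty replicate 3 at -25.8 kb (0.16) and at +27.0 kb (0.52), and GATA2 replicate 4 at +8.2 kb (0.3). No library left out ended the calls at these Csf1r regions, at Kit -145.4 kb or at Flt3 +37.2 kb, and the calls of the Flt3 regions at +34.0 and -35.0 kb that were lost are given with those regions.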

How the results depend on the processing

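Of 43 called differences at the described regions, 43 kept their direction under every alternative that gave a value and 29 also kept the call. The 2 at Kit -114.3 kb are among them, although that region had to differ. So are those at Csf1r -89.1 and -79.5 kb, which would not have been tested without the peaks of their high group. Ranking by fold enrichment gave the same order as by −log10 p and so tested nothing. The replicate numbers do not pair the libraries (r of same-numbered deviations -0.064 to 0.106 over 24 pairs, 1 over 0.1, and 3 of 16 libraries closest to their own number). With the replicate block no window score changed its call (GATA2 at Csf1r -3.37, adjusted p = 0.0242), and 36 instead of 34 member regions were called for the deletion.

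Lists with 50% of the 49000 peaks gave window differences of 0.47 for the deletion at Kit, 4.88 at Flt3 (called) and, at Csf1r, 0.37 for GATA2 (reversed, not called), 1.83 for 9aa-Ins (called) and 1.45 for 9aa-Ins against GATA2 (adjusted p = 0.0519). Called members were then 17 for the deletion, 12 for GATA2 (24 with 49000 peaks) and 10 for 9aa-Ins against GATA2 (23), and 3 members were opened or closed by the deletion instead of 11. With all deposited peaks, where sums move with list length by construction, the deletion differences were 1.08 at Kit, -16.25 at Flt3 (reversed, adjusted p = 0.0496) and 0.6 at Csf1r. Those of GATA2 were 4.83, -13.14 and -7.95, all not called, that of 9aa-Ins at Csf1r was 18.76 (called) and that of 9aa-Ins against GATA2 at Kit -1.94. The deletion then opened or closed 4 members, and 9aa-Ins 2 instead of 1, as it also did with peaks narrower than 1 kb, which gave -4.92 for GATA2 at Csf1r (adjusted p = 0.147). On the linear scale the deletion difference at Flt3 was -1.31 (reversed, adjusted p = 0.0133). By the number of regions it was -4.75 (reversed, adjusted p = 0.0271), with -3.0 for GATA2 and 2.25 for 9aa-Ins against GATA2 at Flt3 and -3.5 for GATA2 at Csf1r, none called. Within 100 kb, which leaves out Kit -114.3, -145.4 and +120.5 kb, Kit differed by 0.37 (deletion), 0.75 (GATA2) and -0.75 (9aa-Ins against GATA2), none called. Flt3 then differed by 5.61 (deletion) and Csf1r by 3.13 (9aa-Ins), both called, and the deletion opened or closed 7 members. The cause of these changes was otherwise not tested. Over all libraries left out in turn, the GATA2 difference at Csf1r ranged from -4.26 to -2.69, the members opened or closed by GATA2 from 5 to 10 (10 without GATA2 replicate 3) and by 9aa-Ins from 1 to 3. Read depth, which the lists do not give, limits how a missing weak peak can be read.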
